A study of Mus musculus with 6 samples.

Results

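The serotonin receptor gene Htr2c carries 5 miRNA hairpins in its introns, miR-764, miR-1912, miR-1264, miR-1298 and miR-448. They were chosen by number, with every arm taken, which gave 10 mature miRNAs of the 1055 in the deposited tables. The rule uses no measured value, though it was set with earlier results of these data known. Small RNA of 19 to 25 nucleotides (nt) had been sequenced from the whole brains of 3 wild-type and 3 Adar2-/- mice, 1 library per brain. All 6 animals were females of the 129SV strain aged 5.5 months, and both genotypes were homozygous for the pre-edited Gria2 allele, which the Adar2-/- mice need to survive. The wild-type mice are therefore wild type at Adar2 but not at Gria2. The Adar2 deletion is present throughout the body. Whole brain was sequenced, so that no comparison here separates neurons from other brain cells.

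Htr2c encodes a serotonin receptor that acts through G proteins and is found on neurons and, strongly, on the epithelium of the choroid plexus. Its messenger RNA is a well known target of the adenosine deaminases ADAR1 and ADAR2, which turn adenosine into inosine in double-stranded RNA. Intronic miRNAs are cut as hairpins out of the host transcript by Drosha and then trimmed by Dicer to a duplex, of which usually a single strand, the guide, is kept. The strand that is mostly lost is written with a star in older names, and the arms are otherwise called 5p and 3p after the end of the hairpin they come from.

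On the mouse build NCBIM37, Htr2c (ENSMUSG00000041380.6) lies at chrX:143397056-143631820 on the plus strand and spans 234.8 kb, with 6 exons in transcript ENSMUST00000036303.2. All 5 hairpins are on the same strand as the gene, and none overlaps an annotated exon of it. Intron 2, which is 90779 bases long, holds 4 of them. miR-764 (chrX:143436802-143436909) begins 39.7 kb from the start of the gene, miR-1912 (chrX:143443984-143444070) at 46.9 kb, miR-1264 (chrX:143445144-143445229) at 48.1 kb and miR-1298 (chrX:143499448-143499545) at 102.4 kb. The last hairpin, miR-448 (chrX:143592753-143592864), lies in intron 4, 195.7 kb from the start. Only 1.07 kb separate miR-1912 from miR-1264, whereas 54.22 kb separate miR-1264 from miR-1298 and 93.21 kb separate miR-1298 from miR-448.

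The mature sequences of 8 of the 10 arms were matched in RefSeq (GRCm38.p6) and are shown because the counts rest on telling these arms apart from each other and from all other miRNAs. The capitals mark the seed, bases 2 to 8, with which a miRNA pairs to its targets.
miR-764-5p: gGUGCUCAcauguccuccu
miR-764-3p: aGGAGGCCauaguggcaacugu
miR-1912: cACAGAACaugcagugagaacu
miR-1264-3p: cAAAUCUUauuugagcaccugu
miR-1298: uUCAUUCGgcuguccagaugua
miR-1298*: cAUCUGGGcaacugauugaacu
miR-448-5p: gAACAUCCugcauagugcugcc
miR-448-3p: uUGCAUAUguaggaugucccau

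No seed was shared between these 8 arms, so they do not form a seed family although they share a host gene. Among the 1737 mature mouse sequences compared, 1 other miRNA (miR-7062-5p) carried the seed of miR-764-3p, and none carried the seed of any of the other 7. Each arm differed from its nearest other mature miRNA by at least 7 edits, while the mapping tolerated about 2 mismatches. miR-764-5p is 19 nt long and the other 7 are 22 nt. The number of adenosines, the base that ADAR enzymes change, ran from 2 in miR-764-5p to 9 in miR-1912.

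The hairpins that gave the most reads are shown whole, again from RefSeq, with the mature arms in capitals. miR-1298 keeps reads from both arms and miR-448 almost wholly from the 3p arm, as described further on. Their predicted minimum free energies were -46.3 kcal/mol for miR-1298 and -50.5 kcal/mol for miR-448, against -49.6 for miR-764 and -41.1 for miR-1912.
miR-1298 hairpin: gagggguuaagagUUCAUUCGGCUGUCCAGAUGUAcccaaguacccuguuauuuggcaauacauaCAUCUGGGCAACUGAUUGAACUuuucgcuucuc
miR-448 hairpin: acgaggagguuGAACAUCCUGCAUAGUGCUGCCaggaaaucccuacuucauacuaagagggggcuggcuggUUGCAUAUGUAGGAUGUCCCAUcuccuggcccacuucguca

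The libraries held 12449633 to 23935544 reads mapped to miRNAs, and abundance is given as reads per 1000000 of these (RPM). The 10 arms took 0.0255% to 0.0752% of them. Of the 7 neuronal miRNAs listed, miR-124 stood at 7203 to 25453 RPM and miR-9 at 99104 to 151020 RPM. Others of the list fell as low as 377 RPM. A list of sensory miRNAs, with miR-182 and miR-183, summed to 108156 to 155374 RPM in wild type. In Adar2-/- it summed to 19158 to 186903 RPM. Whether these levels are those of whole brain was not tested. Adar2 mRNA and Htr2c mRNA were not analysed here, so that neither the genotype labels nor the level of the host was checked. The study itself reported less Adar2 (Adarb1) mRNA in Adar2-/- brain on a microarray, and fewer A to G changes in the miRNA reads. Some libraries stood apart in other miRNAs. miR-375 of endocrine cells reached 3294 RPM in wild-type replicate 1, against 42.9 to 113 RPM in the other 5, and the epithelial list around miR-200b summed to 738 RPM in Adar2-/- replicate 3 and reached 9210 RPM in that genotype against 4783 to 6267 RPM in wild type. RPM counts reads, not molecules, and intervals on it cover counting error only.

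All 10 arms had reads in all 6 libraries, but at very unequal levels. miR-1298, miR-1298* and miR-448-3p held 93.1% to 98.1% of the reads of the 10 arms and ranked between 109 and 228 among the 1055 miRNAs. The other 7 arms ranked between 388 and 691. Only these 3 arms reached 100 reads in every library, 9 arms reached 10, and miR-1912* stayed at 5 to 19 reads.

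The 3 hairpins nearest the start of the gene gave far fewer reads than the other two. Summed over both arms, miR-764, miR-1912 and miR-1264 stood together at 27.6, 13.2 and 18.7 RPM in wild-type replicates 1 to 3. In Adar2-/- replicates 1 to 3 they stood at 10.4, 26.4 and 28.5 RPM. miR-1298 and miR-448 together stood at 394, 739 and 658 RPM in wild type and at 245, 515 and 443 RPM in Adar2-/-. In each library the distal pair had more reads, between 14.3 times (wild-type replicate 1) and 56.1 times (wild-type replicate 2) those of the proximal 3. The grouping into proximal and distal hairpins was made after the values were seen.

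**Figure D1:**
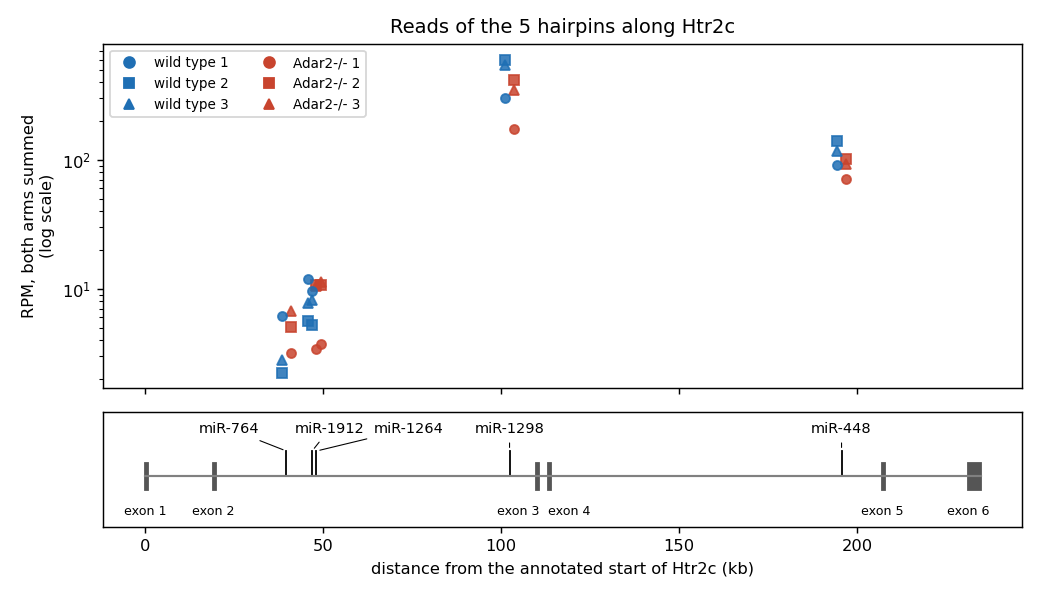
Abundance of each hairpin (both arms summed, RPM on a log axis) against its distance in kb from the annotated start of Htr2c. Each point is a library, blue for wild type and red for Adar2-/-. The 6 exons are drawn underneath at their positions, with the short ones widened beyond scale. The 3 hairpins between 39.7 and 48.1 kb lie far below miR-1298 at 102.4 kb and miR-448 at 195.7 kb in every library.

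miR-1298 was the most abundant arm of the locus in 5 of the 6 libraries. It stood at 142, 447.99 and 329.9 RPM in wild-type replicates 1 to 3 and at 108, 269.7 and 229 RPM in Adar2-/- replicates 1 to 3. Its highest values were in wild-type replicates 2 and 3, but wild-type replicate 1 lay below Adar2-/- replicates 2 and 3, so the genotypes overlapped. The means were 306 ± 155 RPM (SD, n = 3) in wild type and 203 ± 83.9 RPM (SD, n = 3) in Adar2-/-, a ratio of 0.661. The exact permutation test of this difference gave p = 0.4. All permutation tests here were two-sided, and with 3 libraries against 3 they cannot give less than 0.1. In whole brain, fewer cells that express a miRNA and less of it per cell cannot be told apart.

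miR-1298*, the opposite strand of the same hairpin, was of similar abundance and was the only arm whose genotypes did not overlap in RPM. With totals that leave out the 5 most abundant miRNAs, those of miR-448-3p did not overlap either. The share of all miRNAs without overlap under those totals was not counted. The level of miR-1298* was 161, 151 and 211 RPM in wild-type replicates 1 to 3 and 65.7, 144 and 121 RPM in Adar2-/- replicates 1 to 3. The margin was narrow between Adar2-/- replicate 2 and wild-type replicate 2. The means were 174 ± 32.2 and 110.2 ± 40.4 RPM (SD, n = 3 each), a ratio of 0.633 (exact permutation p = 0.1, the smallest possible). The 399 miRNAs that reached 100 reads in all 6 libraries serve as the background, and 12 of them (3.01%) were likewise lower in Adar2-/- without overlap, and in RPM miR-1298* was the only arm of the locus among them.

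miR-448-3p, the guide strand of its hairpin by read number, stood at 90.1, 139 and 116 RPM in wild-type replicates 1 to 3. In Adar2-/- replicates 1 to 3 it stood at 69.8, 99.3 and 89.5 RPM. Wild-type replicate 1 lay between the Adar2-/- libraries, and the other wild-type libraries lay above all of them. The means were 115 ± 24.7 and 86.2 ± 15.1 RPM (SD, n = 3 each), a ratio of 0.747 (exact permutation p = 0.2).

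**Figure D2:**
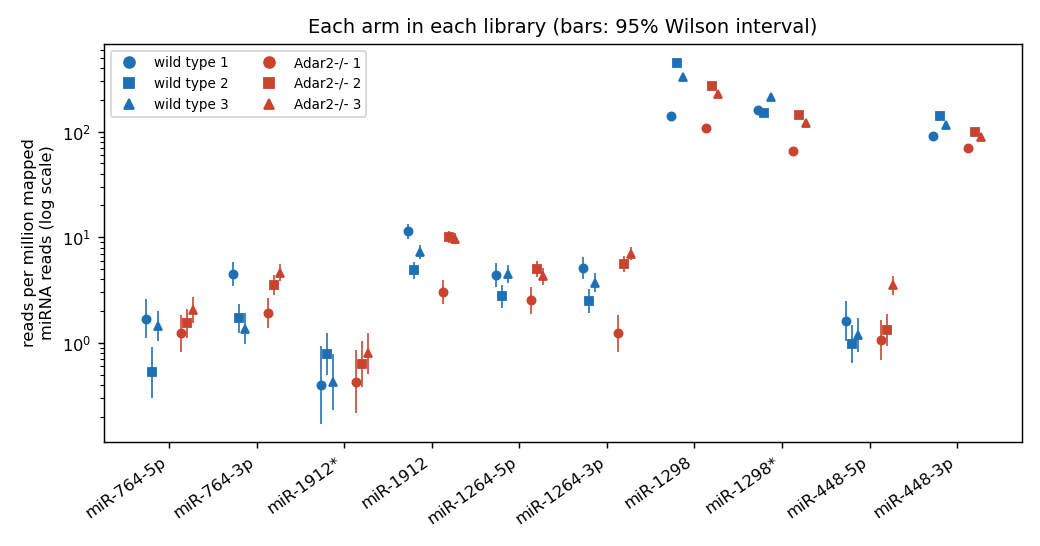
Abundance in RPM (log axis) of each of the 10 arms in order of position along Htr2c, with each library as a point (blue for wild type, red for Adar2-/-) and its 95% Wilson interval as a bar, which covers counting error only. The points of miR-1298* do not overlap between the genotypes, whereas those of the other 9 arms do.

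In the test on the counts with edgeR's quasi-likelihood method over all 399 miRNAs, none passed the threshold of 0.05 after Benjamini-Hochberg adjustment (0%), and 13 (3.26%) had an unadjusted p under 0.05. DESeq2 called 1 of them, which was not from this locus. In the main edgeR fit none of the 3 arms tested had an unadjusted p under 0.05. With DESeq2 1 arm did, against 40 miRNAs over all tested. With edgeR on totals that leave out the 5 most abundant miRNAs 1 arm did, against 16 over all tested. The log2 fold change of miR-1298* was -0.66 (standard error 0.360, 95% interval -1.46 to 0.14, edgeR adjusted p = 0.988). For miR-1298 it was -0.60 (standard error 0.479, 95% interval -1.66 to 0.47) and for miR-448-3p -0.42 (standard error 0.319, 95% interval -1.13 to 0.29), both with an edgeR adjusted p of 0.988. Without wild-type replicate 1, in which miR-375 was high, the values for miR-1298*, miR-1298 and miR-448-3p were -0.71, -0.94 and -0.57, and without Adar2-/- replicate 3 they were -0.73, -0.70 and -0.45. miR-1298 came closest to zero without wild-type replicate 2, at -0.22, and stood at -0.30 without Adar2-/- replicate 1. By unadjusted p, miR-1298* ranked 34, miR-448-3p 79 and miR-1298 88 of the 399. A change of zero and a fall by a factor of 2 are both inside the intervals of miR-1298, miR-1298* and miR-448-3p.

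The study asked for the same direction in all 3 replicate numbers and a change of at least 1.3-fold, and its tables for a significance test besides, which is left out of the counts that follow. In the deposited counts 17 of the 399 miRNAs (4.26%) were lower in Adar2-/- by direction and size, and all 3 tested arms of the locus were among them, of which miR-1298 and miR-1298* come from 1 hairpin. By the same criteria 22 miRNAs (5.51%) were higher, and none of them was from the locus. Divided by the wild-type library of the same number, Adar2-/- was at 0.767, 0.602 and 0.696 for miR-1298 in replicates 1 to 3. For miR-448-3p it was at 0.774, 0.712 and 0.768, within a narrow range. For miR-1298* it was at 0.408, 0.958 and 0.572, so that this arm was hardly lower in replicate 2. Whether the replicate numbers pair the brains is not known, and these ratios would differ under another matching. Under each of the 4 library scalings tried, the 3 arms stayed lower in all 3 replicate numbers, although the ratio in replicate 1 rose as far as 0.973 for miR-1298 and 0.982 for miR-448-3p.

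The genotypes overlapped in each of the 7 arms with few reads. miR-1912, the most abundant of them, stood at 11.4, 4.87 and 7.29 RPM in wild-type replicates 1 to 3 and at 3.00, 10.1 and 9.73 RPM in Adar2-/- replicates 1 to 3. Wild-type replicate 1 had the highest and Adar2-/- replicate 1 the lowest value of all 6, and the ratio of the means was 0.969 (exact permutation p = 1). miR-1264-3p, from the neighbouring hairpin, stood at 5.14, 2.50 and 3.71 RPM in wild type and at 1.23, 5.60 and 7.02 RPM in Adar2-/-. Its genotypes overlapped too, with a ratio of 1.22 (exact permutation p = 0.7).

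miR-1264-5p had about as many reads as miR-1264-3p. It stood at 4.42, 2.77 and 4.47 RPM in wild type and at 2.52, 5.00 and 4.26 RPM in Adar2-/-, a ratio of 1.01 (exact permutation p = 1). miR-764-3p stood at 4.498, 1.71 and 1.36 RPM in wild type and at 1.93, 3.52 and 4.64 RPM in Adar2-/-, a ratio of 1.33 (exact permutation p = 0.5). In each of these arms the genotypes overlapped.

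The remaining 3 arms stayed below 4 RPM in every library. miR-764-5p ran from 0.527 to 1.69 RPM in wild type and from 1.23 to 2.05 RPM in Adar2-/-, a ratio of 1.31 (exact permutation p = 0.5). miR-1912* ran from 0.402 to 0.790 and from 0.429 to 0.794 RPM, a ratio of 1.15 (exact permutation p = 0.5). miR-448-5p stood at 1.61, 0.966 and 1.19 RPM in wild type and at 1.07, 1.31 and 3.51 RPM in Adar2-/-. Its single high value was in Adar2-/- replicate 3, and the ratio of 1.57 (exact permutation p = 0.6) rested on that library, without which it was 0.951.

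With the minimum lowered to 10 reads in every library, 608 miRNAs were tested with edgeR and 0 passed the threshold (0%), while 20 (3.29%) had an unadjusted p under 0.05. None of the 9 arms of the locus in this test was among the 20. Of the 6 that the higher minimum had left out, 5 had log2 fold changes above zero, from 0.02 (standard error 0.390) for miR-1264-5p to 0.67 (standard error 0.486) for miR-448-5p. miR-1912 was at -0.04 (standard error 0.499), and the edgeR adjusted p of the 6 ran from 0.982 to 0.984. Their intervals are wide: that of miR-1264-3p reached from -0.91 to 1.52.

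Of the 9 arms with at least 10 reads in every library, 5 (miR-764-5p, miR-764-3p, miR-1912, miR-1264-3p and miR-448-5p) were lower in Adar2-/- in replicate 1 and higher in replicates 2 and 3. This pattern was common, with 214 of the 608 miRNAs (35.2%) showing it. No arm of the locus was higher in Adar2-/- in all 3 replicate numbers, against 62 of the 608 miRNAs (10.2%).

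**Figure D3:**
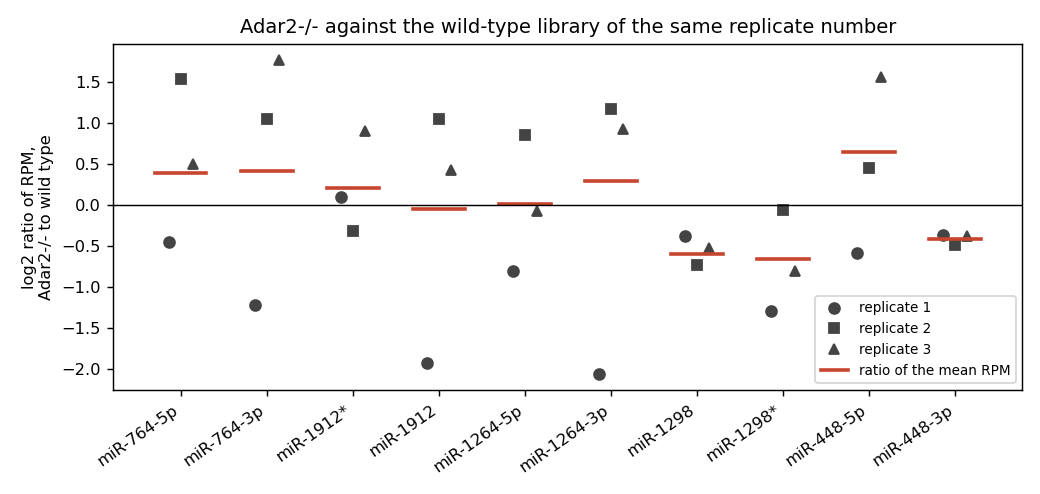
Log2 ratio of RPM, Adar2-/- to wild type, for each arm, with a point for each of the 3 replicate numbers and a red line for the ratio of the mean RPM. The points of miR-1298, miR-1298* and miR-448-3p all lie below zero (ratios from 0.408 to 0.958), while the points of each other arm fall on both sides.

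Summed over all 10 arms, the locus gave 422, 752 and 677 RPM in wild-type replicates 1 to 3. In Adar2-/- replicates 1 to 3 it gave 255, 541 and 472 RPM. The means were 617 ± 173 and 423 ± 149 RPM (SD, n = 3 each), a ratio of 0.685, and the genotypes overlapped. The distal pair alone had a ratio of 0.671 and the proximal 3 hairpins a ratio of 1.10 (0.376, 2.00 and 1.52 by replicate number), so that the sum over the locus is nearly that of miR-1298 and miR-448.

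The ratio between the arms of a hairpin is taken within a library and does not depend on how libraries are scaled. From miR-1298 the 3p arm (miR-1298*) took 53.2%, 25.2% and 39.0% of the reads in wild-type replicates 1 to 3. In Adar2-/- replicates 1 to 3 it took 37.7%, 34.9% and 34.5%. The wild-type brains thus spread over a range that held all 3 Adar2-/- brains, and in wild-type replicate 1 the star arm had more reads than the other. The 95% Wilson interval in that library was 51.6% to 54.8%. The mean log2 ratio of the arms differed by -0.17 between Adar2-/- and wild type (exact permutation p = 0.7), and without wild-type replicate 1 the difference was 0.26.

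The other hairpins each had an arm preference of their own. miR-448 was the most one-sided, with 96.2% to 99.3% of its reads on the 3p arm. The lowest share was in Adar2-/- replicate 3 (95% Wilson interval 95.4% to 96.9%), and the mean log2 ratio differed by -0.88 (exact permutation p = 0.3). Without that library the difference was -0.40, and without wild-type replicate 2 it was -0.56. miR-1912 had 86.0% to 96.6% on the 3p arm and miR-764 48.5% to 76.5%. miR-1264 kept both arms, with 32.9% to 62.2% on the 3p arm. For miR-764, miR-1912 and miR-1264 the mean log2 ratio differed by 0.01, -0.35 and 0.02 between the genotypes (exact permutation p = 1, 0.7 and 1). Over the 5 hairpins these p-values, unadjusted, ran from 0.3 to 1.

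**Figure D4:**
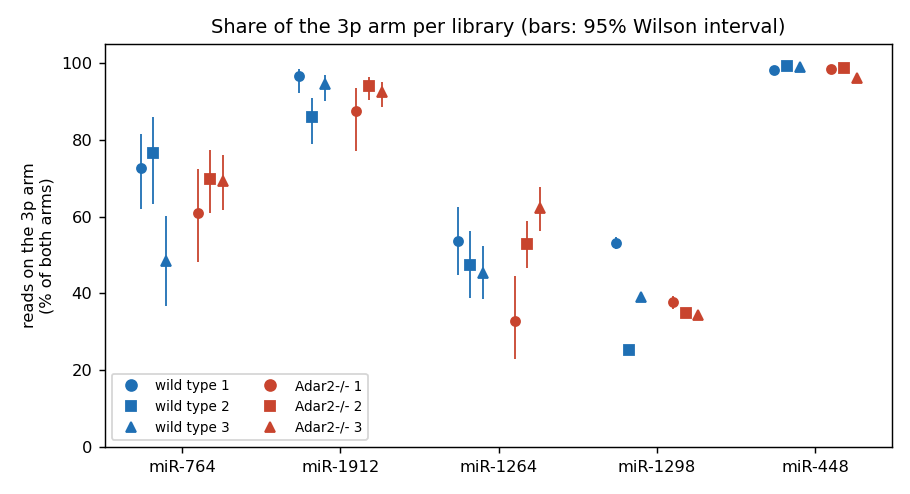
Share of each hairpin's reads on the 3p arm, in percent, by library, with 95% Wilson intervals as bars (counting error only). miR-448 and miR-1912 lie above 86.0% in every library, and miR-1298 spreads from 25.2% to 53.2% in wild type but only from 34.5% to 37.7% in Adar2-/-.

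miR-1298 and miR-448-3p lie 93.21 kb apart and in different introns, and their levels varied closely together over the libraries. Pearson's r of log2(RPM + 1) was 0.94 and Spearman's rho 0.94 over the 6 libraries, and r was 0.99 after the genotype means were taken out. All miRNAs of a library share its depth and any other trait of that library, and the correlations are given as a description. miR-1298 had 1.57, 3.21 and 2.83 times the reads of miR-448-3p in wild type and 1.55, 2.72 and 2.56 times in Adar2-/-. The low ratios were those of replicate 1 in both genotypes, and the mean log2 ratio differed by -0.13 (exact permutation p = 0.5).

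Most proximal arms also varied together by Pearson's r. Among the 5 arms of miR-764, miR-1912 and miR-1264 with at least 10 reads in every library, the 10 pairs had r from 0.52 to 0.96 (median 0.71, n = 6 libraries). The closest pair was miR-1912 and miR-1264-3p, whose hairpins lie 1.07 kb apart. Spearman's rho of the same pairs ran from 0.03 (miR-764-3p and miR-1264-5p) to 0.89 (miR-764-5p and miR-1264-3p). miR-1912*, with only 5 to 19 reads, had r from -0.24 to 0.31 with the 5 arms. Against miR-1298 and miR-448-3p the same 5 arms had r from -0.57 to 0.23 (median 0.12). The other distal arms were not apart from them in this way. miR-1298* had r of 0.63 with miR-1912, 0.64 with miR-1264-5p and 0.55 with miR-1264-3p, and about zero with the arms of miR-764 (0.014 and -0.042). miR-448-5p had r from 0.42 to 0.73 with the 5 arms. miR-448-5p and miR-448-3p, cut from 1 hairpin, had r of -0.28, with only 20 to 84 reads on the 5p arm.

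**Figure D5:**
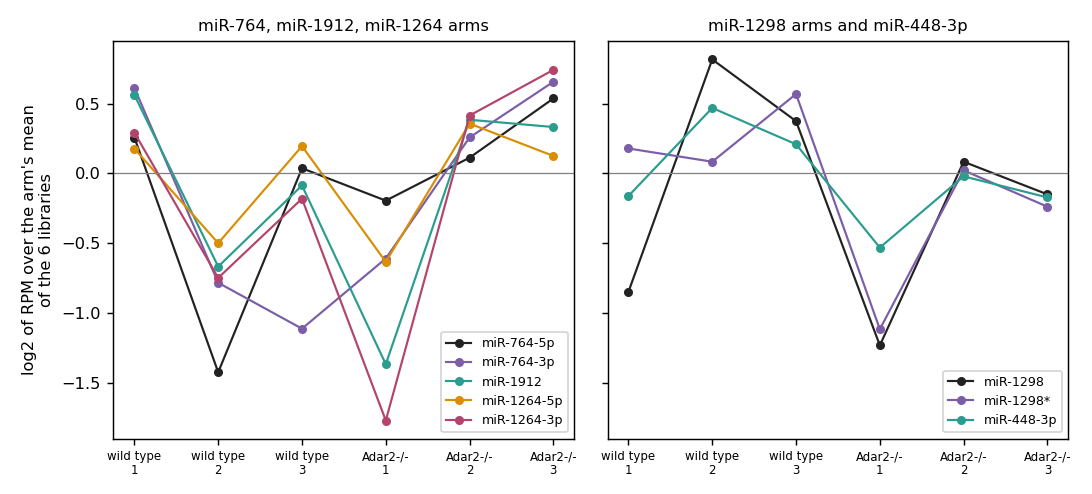
Log2 of the RPM of each arm over the arm's own mean of the 6 libraries, with the 5 proximal arms on the left and the arms of miR-1298 and miR-448-3p on the right. The lines only join the points of an arm, since libraries have no order. miR-1298 and miR-448-3p are lowest in replicate 1 of each genotype, while the 5 proximal arms are above zero in wild-type replicate 1 and below it in wild-type replicate 2.

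The spread between libraries was far larger than counting error in the abundant arms. For miR-1298 the coefficient of variation was 50.4% in wild type and 41.4% in Adar2-/-, where counting alone would give at most 2.38%. For miR-448-3p it was 21.4% and 17.5%, against at most 2.99%. In miR-764-5p counting error reached 28.9% in the library with the fewest reads, and in miR-1912* 44.7%, so that depth limits what can be said of these arms.

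Among the 396 of these miRNAs outside the locus, the 5 with the highest Pearson's r to miR-1298 were miR-673-3p, miR-187, miR-3057-5p, miR-135b and miR-185*, with r from 0.93 to 0.94 over the 6 libraries. miR-448-3p, from the locus itself, reached the same r of 0.94. The choice of the 5 depends on the measure. With the genotype means taken out they ranked 18, 5, 8, 11 and 14 in the order given, by Spearman's rho miR-135b ranked 14, and with totals that leave out the 5 most abundant miRNAs miR-187 had r of 0.80. Of the 5, miR-135b lies in Lemd1 and miR-185* in D16H22S680E. Their log2 fold changes ran from -0.72 for miR-673-3p to -0.10 for miR-187, and none passed the threshold.

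Markers of the cell types that could hold Htr2c transcripts are given beside these results. Of the choroid plexus list, miR-204 stood at 836, 1581 and 892 RPM in wild type and at 1162, 1063 and 1621 RPM in Adar2-/-, with a log2 fold change of 0.22 (standard error 0.366, edgeR adjusted p = 0.989). miR-211 stayed at 0.9752 to 2.68 RPM, and the star arms miR-204* and miR-211* at 0.469 to 3.30 RPM and at 0 to 5 reads. The summed level of the list was 840 to 1584 RPM in wild type and 1066 to 1626 RPM in Adar2-/-. miR-204 is made in several other cell types too. Adar2-/- replicate 3 had the most miR-204 and wild-type replicate 2 the most miR-1298. Within wild type both miRNAs were highest in replicate 2 and lowest in replicate 1. Within Adar2-/- miR-1298 was highest in replicate 2, where miR-204 was lowest.

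Of the multiciliated cell list 4 of 7 miRNAs were tested, all 4 with log2 fold changes above zero (median 0.24) and none past the threshold. miR-34b-5p, miR-34b-3p, miR-34c and miR-34c* were at 64.6 to 103, 18.2 to 34.3, 177 to 329 and 19.5 to 32.4 RPM, while the defining miR-449a stayed at 0.426 to 1.71 RPM, miR-449b at 1 to 3 reads and miR-449c at 0 to 4 reads. The list summed to 295 to 411 RPM in wild type and 287 to 487 RPM in Adar2-/-. Of the 7 neuronal miRNAs 5 were above and 2 below zero (median 0.20), and their sum was 138471 to 180857 RPM in wild type and 141887 to 157509 RPM in Adar2-/-. None of the 7 passed. The part of cell composition in the values of miR-1298 and miR-448 was not tested.

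Other intronic and X-linked miRNAs are given for comparison. Of 127 other miRNAs tested that lie in introns of protein-coding genes on the same strand, 75 had log2 fold changes above zero and 52 below (median 0.11), and 8 were lower in all 3 replicate numbers. Of 31 other X-linked miRNAs tested, 15 were above and 16 below zero (median -0.01), and 1 was lower in all 3. Over all 399 miRNAs 201 were above zero and 198 (49.6%) below, with a median of 0.0023, and 28 (7.02%) were lower in all 3. These lists stand beside the 3 arms of the Htr2c locus as a description, since the arms were not tested against them.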

How the data were processed

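The authors deposited whole-number read counts per mature miRNA, without normalization, in a table for each replicate number with a wild-type and an Adar2-/- column. They clipped reads with Cutadapt and mapped them with NextGenMap at high identity to miRBase mature sequences, and reads with several hits were weighted. How weights became whole numbers is not given in the sources used here. Columns were matched to samples by genotype and replicate number, and 12 blank lines were dropped.

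RPM used total mapped miRNA reads. The deposited counts were tested with edgeR 4.0.16 (glmQLFit and glmQLFTest in R 4.3.3) on the 399 miRNAs that reached 100 reads in all 6 libraries, with those totals as library sizes, genotype as the only term and a Benjamini-Hochberg threshold of 0.05. A positive log2 fold change means more in Adar2-/-. Arm ratios had 0.5 read added to each arm. Alternatives were TMM, DESeq2 1.42.0, totals that leave out the 5 most abundant miRNAs, a minimum of 10 reads or none, a replicate block, a 1.5-fold rule and left-out libraries. Each hairpin was the GENCODE vM1 miRNA gene around an exact match of a mature arm on NCBIM37, and introns came from GENCODE vM1 exons. The 4 hairpins with a RefSeq sequence were folded with ViennaRNA 2.7.2, and miR-1264 was not folded. miR-1298 was taken as the 5p arm, and miR-1298* and miR-1912 as 3p arms. The fits were tested on simulated data. Tables and plots used Python 3.11.15 with pandas 2.3.3, numpy 2.4.6, matplotlib 3.10.9 and scipy 1.17.1.

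The members and the comparison lists were chosen with earlier results of these data known. Every arm is named, and beside them the 5 miRNAs most like miR-1298, all choroid plexus and multiciliated markers, and at most 2 miRNAs of any other list.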

Additional observations from a re-analysis of the deposited data

How the results depend on the processing

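The log2 fold changes of miR-1298, miR-1298* and miR-448-3p stayed below zero in all 17 settings, from -0.94 to -0.22, from -0.997 to -0.39 and from -0.57 to -0.26, with adjusted p (edgeR or DESeq2) from 0.249 to 0.998. No arm of the locus was called in any. The settings reuse the same 6 libraries, and how many of all miRNAs keep their sign was not counted. Over all miRNAs DESeq2 called 1 and edgeR, with a library or replicate number left out, 0 to 18 (18 without replicate 1).

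The count of miRNAs lower by at least 1.3-fold in all 3 replicate numbers, 17, became 27 with TMM, 32 without the 5 most abundant miRNAs in the totals, 30 with a minimum of 10 reads, 8 at 1.5-fold and 21 to 82 with a replicate number left out, where only the remaining comparisons have to match. The 22 higher ones became 34 with TMM, 35 with 100 reads in 1 or more libraries, 39 with a minimum of 10 reads, 12 at 1.5-fold and 25 to 141. Leaving out libraries moved the summed ratio between 0.589 (without Adar2-/- replicate 2) and 0.821 (without Adar2-/- replicate 1), with 0.591 and 0.769 without wild-type replicates 1 and 2. It moved the arm difference of miR-1298 between -0.62 and 0.26, where both settings above zero (0.26 and 0.19) left out wild-type replicate 1.

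The directions of arms with few reads were unstable. For miR-1264-5p the log2 fold change was -0.072 with TMM, -0.070 without the 5 most abundant miRNAs, -0.040 with DESeq2 and -0.087 with the replicate block and TMM, and its RPM ratio was 0.947 without those 5, 0.966 with DESeq2 size factors and 0.994 as the mean within the replicate block. With libraries left out, log2 fold changes ran from -0.16 to 1.405 for miR-764-3p, from -0.54 to 0.70 for miR-1912, from -0.39 to 0.35 for miR-1264-5p, from -0.14 to 1.02 for miR-1264-3p and from -0.079 to 1.16 for miR-448-5p. The RPM ratios ran from 0.878 to 2.65 for miR-764-3p, 0.894 to 1.497 for miR-1912*, 0.681 to 1.63 for miR-1912, 0.763 to 1.28 for miR-1264-5p, 0.894 to 2.03 for miR-1264-3p and 0.928 to 2.23 for miR-448-5p. Arm differences ran from -0.61 to 0.40 for miR-764, -1.21 to 0.45 for miR-1912, -0.46 to 0.65 for miR-1264 and -1.42 to -0.36 for miR-448. The causes were not tested.

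Same-numbered libraries did not deviate together over all miRNAs (correlations 0.001, -0.08 and -0.01 in replicates 1 to 3 over 399 miRNAs). Each deviation is from a mean of only 3 libraries, so these correlations cannot exclude a pairing or a shared batch. miR-1298 and miR-448-3p were lowest in replicate 1 of both genotypes. With the replicate block the log2 fold changes were -0.55 for miR-1298, -0.72 for miR-1298* and -0.41 for miR-448-3p, with 0 calls over all miRNAs by edgeR and 7 with an unadjusted p under 0.05.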

Other observations

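Marker lists of other cell types that a dissected brain can hold were read in the same test, and the direction of most rested on single libraries. The epithelial list had 5 of 5 log2 fold changes below zero (median -0.13) and the sensory list, with miR-182 and miR-183, 3 of 3 (median -0.30). Without Adar2-/- replicate 3 these medians were 0.39 and 0.15, and without wild-type replicate 1 the epithelial median was 0.050. The sensory list summed to 108156 to 155374 RPM in wild type and to 19158 to 186903 RPM in Adar2-/-, with its lowest level in Adar2-/- replicate 3. Oligodendrocyte miRNAs were split, 2 above and 2 below zero (median 0.01), as were those of blood (median 0.22). Muscle miRNAs were 1 above and 3 below (median -0.08). Without wild-type replicate 2 the blood median was -0.082 and the muscle median 0.57, and without Adar2-/- replicate 1 the muscle median was 0.17. Of the 3 endocrine miRNAs 2 were above zero, and miR-375 was at -4.09 with an unadjusted p under 0.05, the lowest log2 fold change of the 399. In wild-type replicate 1 miR-375 stood at 3294 RPM. The other wild-type libraries were at 113 and 42.9 RPM, and Adar2-/- at 55.4 to 74.9 RPM. The endocrine median of 0.19 was 1.00 without wild-type replicate 1 and -0.17 without wild-type replicate 2. It was -0.014 without wild-type replicate 3 and -0.21 without Adar2-/- replicate 3. No miRNA of these lists passed the threshold in edgeR, and the part of these cells in the levels of the Htr2c miRNAs was not tested.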
